A study of Mus musculus with 6 samples.

Results

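The 9 genes described here encode the oxygen-sensing hydroxylases and the VHL ubiquitin ligase, the machinery that sets the level and activity of hypoxia-inducible factors (HIF). They were taken by symbol from a deposited table of 13843 genes, and all 9 were in it. Egln1, Egln2, Egln3 and Hif1an are the 4 hydroxylase genes, and Vhl, Elob, Eloc, Cul2 and Rbx1 are the 5 ligase genes. The prolyl hydroxylases use oxygen, iron and 2-oxoglutarate to hydroxylate HIF alpha subunits, and the hydroxylated proline is the mark that the VHL protein binds. VHL sits on elongin B and elongin C, which join it to the CUL2 scaffold and the RING protein RBX1, and the assembled ligase ubiquitinates HIF alpha for degradation. The asparaginyl hydroxylase encoded by Hif1an acts on another residue of HIF alpha and blocks the binding of p300-type coactivators.

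The RNA came from E12.5 mouse ventricles, 1 embryo per library, freed of atria and valve region, and all embryos were of the C57BL/6 background. Embryos labelled Vhl(flox/flox) / Nkx2.5(Cre/+), called knockouts here, were set against control embryos labelled Vhl(flox/flox) / Nkx2.5(+/+), with 3 libraries in each group. Both groups carry floxed Vhl on both alleles, so the groups as labelled differ by a Cre allele at Nkx2.5, and no embryo with Cre and intact Vhl was analysed here. Cre is made where Nkx2-5 is active, chiefly in heart muscle precursors, and ventricular cells in which it was never active keep their floxed alleles. Knockout 1 and control 1 came from litter 1, knockout 2 and control 2 from litter 2, knockout 3 from litter 4 and control 3 from litter 3, per the labels, while the study's design text speaks of 3 litters. Control 3 thus has no litter mate, so a fit with litter as a block takes its fold changes from litters 1 and 2 alone. Knockouts and controls were matched by somite count, and polyadenylated RNA was sequenced.

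Values are reads scaled to a common effective library size, as deposited, called normalized values below. The libraries held 9067805 to 12592902 reads, and the 9 genes had between 63 reads (Egln3 in control 1) and 3677 reads (Egln1 in knockout 1). All 6 heart muscle markers were in the table, with summed normalized values of 32611 to 36471 in knockouts 1 and 2, 33499 in knockout 3 and 30263 to 37106 in the controls. Both knockouts were above every control in 3 marker sums, those of the epicardium, the endothelium, and smooth muscle and pericytes. The 5 epicardial markers summed to 436 and 393 in knockouts 1 and 2, 286 in knockout 3 and 239.8 to 322 in the controls, and the 6 endothelial markers to 1248 and 1267 in knockouts 1 and 2, 1005 in knockout 3 and 1079 to 1111 in the controls. The 4 markers of smooth muscle and pericytes summed to 131.5 and 154 in knockouts 1 and 2, 104 in knockout 3 and 113 to 130.6 in the controls. Their part in the results below was not tested. Of 5 macrophage markers 3 were in the table (15.9 to 17.3 in knockouts 1 and 2, 12.9 to 25.5 in the controls), without Ptprc and Fcgr1, and of 4 atrial markers 3 (48.9 to 49.5 in knockouts 1 and 2, 42.4 to 63.8 in the controls), without Sln. The 5 erythroid markers ranged from 1741 to 3506 in knockouts 1 and 2 and from 1573 to 3647 in the controls. In whole tissue, fewer cells of a type and less RNA per cell cannot be told apart.

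The library labelled knockout 3 goes against its label. Vhl had a normalized value of 34.5 there, inside the range of the controls, which is 95.3% of the control mean. It is therefore shown apart, and the comparison sets knockouts 1 and 2 against the 3 controls. Because that library was set apart for its Vhl value, the Vhl difference below is a description with no test. The genes that follow Vhl over the libraries share this limit in part.

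Of the 13843 genes, limma called 588 (4.25%) at a Benjamini-Hochberg adjusted p under 0.05, of which 416 (3.01%) were higher and 172 (1.24%) lower in knockouts 1 and 2 than in the controls. The count was 1122 with litter as a block, and lower without any 1 of the 5 libraries, at 190 without knockout 1, 291 without knockout 2, 387 without control 1, 279 without control 2 and 342 without control 3. Of the 4 hydroxylase genes 2 were higher and 0 lower, and of the 4 ligase genes other than Vhl, 0 passed with limma, edgeR or DESeq2 and 0 had an unadjusted p under 0.05 with limma. Vhl is left out of this count, and the counts describe the members only.

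**Figure D1:**
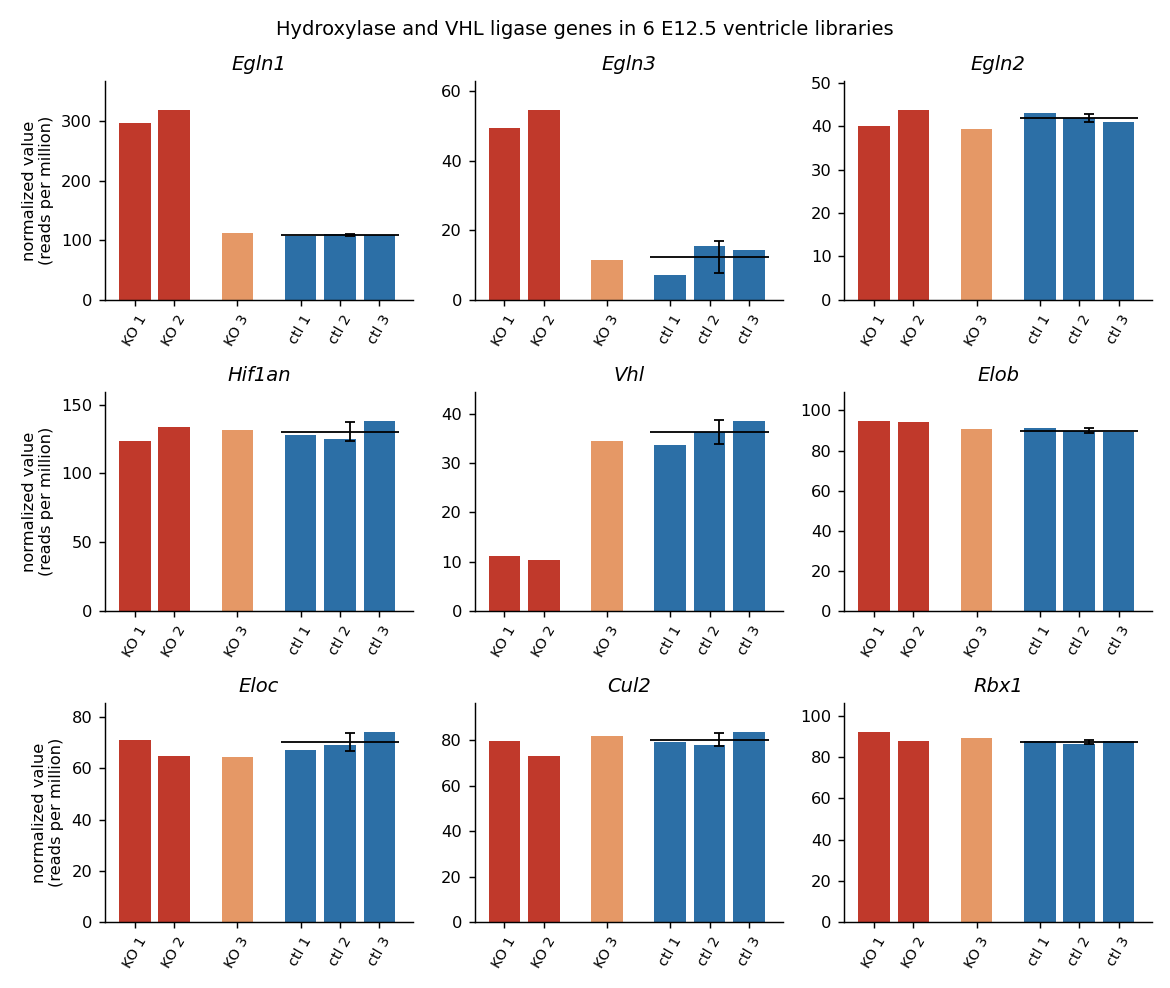
Normalized value (scaled reads) of each of the 9 genes in every library, with knockouts 1 and 2 in red (KO 1, KO 2), the library labelled knockout 3 in orange (KO 3) and controls in blue (ctl), and the black line and bar giving the control mean and SD (n = 3). Egln1 and Egln3 are high in knockouts 1 and 2 alone and Vhl is low in them alone, while knockout 3 stands near the controls in these 3 panels.

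Vhl, the substrate receptor of the ligase, had normalized values of 11.1 and 10.3 in knockouts 1 and 2, against 33.7, 36.3 and 38.6 in controls 1 to 3. Both knockouts were far below every control and close to each other. They stood at 30.6% and 28.3% of the control mean, from 137 and 117 reads, and the log2 fold change on the log2(value + 1) scale was -1.67 ± 0.11 (SE). The gene lies on chromosome 6 from 113623959 to 113631633 (GRCm38, GENCODE M21), and the values cover the gene as a whole. They do not show which of its exons the remaining reads came from. A processed pseudogene of Vhl, Vhl-ps1, was not analysed here.

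None of the 4 partner subunits of Vhl passed the test, and the 95% interval of each log2 fold change included 0. Elob, which encodes elongin B, had 94.9 and 94.02 in knockouts 1 and 2, 90.7 in knockout 3, and 91.2, 89.5 and 89.05 in the controls. Both knockouts were above the 3 controls, by a log2 difference of 0.07 with a 95% interval of -0.08 to 0.22 (limma adjusted p = 0.65). Elob lies on chromosome 17, 3.01 Mb from Nkx2-5, the locus that carries the Cre allele. Its end overlaps that of Srrm2, a splicing factor gene on the other strand, by a few bases, and the libraries did not mark strand. Srrm2 had 781 and 837 in knockouts 1 and 2, 886 in knockout 3, and 936, 837 and 755 in the controls, and its groups overlapped. Elobl, a copy of Elob, was not analysed here.

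Eloc, which encodes elongin C, had normalized values of 70.9 and 64.9 in knockouts 1 and 2, 64.6 in knockout 3, and 67.3, 69.2 and 74.3 in the controls. The groups overlapped, and the log2 fold change was -0.05 with a 95% interval of -0.24 to 0.14. Cul2, the cullin scaffold on chromosome 18, had 79.5 and 73.3 in knockouts 1 and 2, 82.05 in knockout 3, and 79.1, 78.03 and 83.7 in the controls. Its groups overlapped as well, with a log2 fold change of -0.07 and an interval of -0.25 to 0.10.

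Rbx1, the RING subunit that recruits the ubiquitin-conjugating enzyme, had normalized values of 92.3 and 87.8 in knockouts 1 and 2, 89.1 in knockout 3, and 87.8, 86.3 and 87.9 in the controls. The groups overlapped, and the log2 fold change was 0.04 with an interval of -0.11 to 0.20. Its processed pseudogene Rbx1-ps, on chromosome 17, had 7.11 and 2.80 in knockouts 1 and 2, 4.76 in knockout 3, and 2.88, 3.86 and 2.31 in the controls. RSEM shares reads between such copies, so the split between the pair is uncertain.

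The 4 intervals bound a change of these partner mRNAs to between 0.84-fold (Cul2) and 1.17-fold (Elob). The log2 ratio of Vhl to each partner was lower by 1.60 (Cul2) to 1.74 (Elob) in knockouts 1 and 2 than in the controls, and every ratio in the 2 knockouts was below every ratio in the controls. Since the libraries were chosen by Vhl, these ratios are given as a description, and their permutation p is not used.

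**Figure D2:**
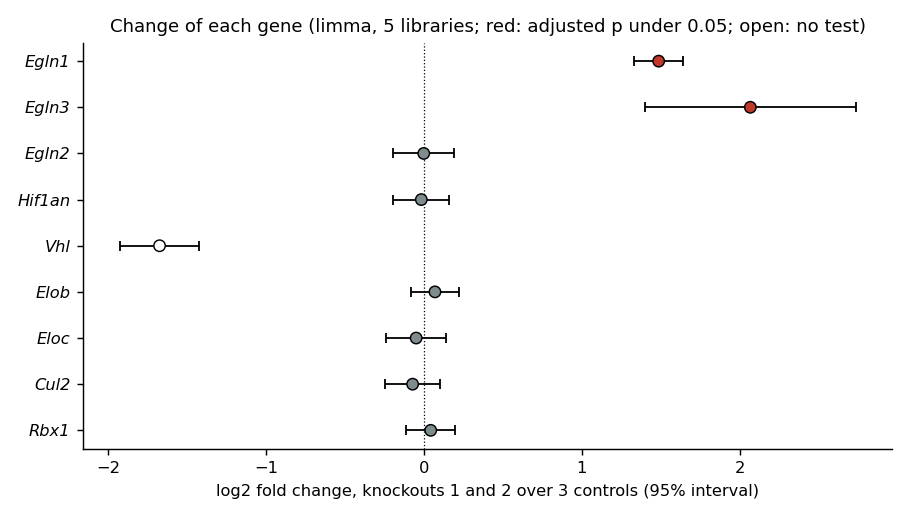
Log2 fold change of each gene, knockouts 1 and 2 over the 3 controls, on the log2(value + 1) scale, with its 95% interval from limma (5 libraries); red points have an adjusted p under 0.05, grey points do not, and the open point is Vhl, which is described with no test. Egln1 and Egln3 lie to the right of 0 and Vhl to the left, and the intervals of the other 6 genes include 0.

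Of the 3 prolyl hydroxylase genes, Egln1 and Egln3 rose in knockouts 1 and 2, while the interval of Egln2 included 0. Egln1 encodes PHD2, the enzyme regarded as the main regulator of HIF alpha in normal oxygen, and lies on chromosome 8 from 124908587 to 124949324, on the minus strand. It had normalized values of 297 and 319.7 in knockouts 1 and 2, 112 in knockout 3, and 108, 111 and 109 in the controls. The controls spread by an SD of 1.78 around 109, and both knockouts were far above the highest of them. The fold change was 2.80 (95% interval 2.51 to 3.12; log2 1.49 ± 0.07, limma adjusted p = 6.9e-05).

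Egln3 encodes PHD3, a smaller prolyl hydroxylase whose gene is known as strongly induced by hypoxia, and lies on chromosome 12 from 54178981 to 54203860, on the minus strand. It had normalized values of 49.5 and 54.8 in knockouts 1 and 2, 11.4 in knockout 3, and 6.99, 15.4 and 14.5 in the controls. Both knockouts were above every control, while control 1, with 63 reads, was below the other controls. The fold change was 4.19 (95% interval 2.64 to 6.65; log2 2.07 ± 0.29, limma adjusted p = 0.0080). With only 1 knockout left the call was lost, at an adjusted p of 0.071 without knockout 1 and 0.068 without knockout 2, where the lone knockout is assumed to vary like the controls (limma).

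Egln2 encodes PHD1, a prolyl hydroxylase found mainly in the nucleus. Its normalized values were 40.1 and 43.8 in knockouts 1 and 2, 39.4 in knockout 3, and 42.9, 41.9 and 41.01 in the controls. The knockouts lay on both sides of the control range, and the fold change was 1.00 with a 95% interval of 0.87 to 1.14. Cyp2t4, which overlaps its end on the other strand, was not analysed here. Hif1an, the asparaginyl hydroxylase also called FIH, had 124 and 134 in knockouts 1 and 2, 131 in knockout 3, and 128, 125 and 138 in the controls. Its groups overlapped too, and the fold change was 0.99 with an interval of 0.87 to 1.12.

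The difference between the paralogs was looked at within each library. The log2 ratio of Egln1 to Egln2 was 2.86 and 2.84 in knockouts 1 and 2, 1.48 in knockout 3, and 1.31, 1.39 and 1.39 in the controls. The log2 ratio of Egln3 to Egln2 was 0.30 and 0.32 in knockouts 1 and 2, -1.71 in knockout 3, and -2.46, -1.38 and -1.44 in the controls. Neither ratio overlapped between knockouts 1 and 2 and the controls. Both had an exact permutation p of 0.2 (two-sided, taken as the doubled one-sided p). That is the smallest this test allows with 2 against 3 libraries. It was 0.22 when adjusted over the 10 ratios computed, those with Vhl included. The ratio of Egln2 to Hif1an differed by 0.02 between the groups (exact p = 1.0). Egln3 rose by 0.58 more than Egln1 on the log2 scale, against a control mean that control 1 lowered. The log2 ratio of Egln3 to Egln1 was -3.77 in control 1. Controls 2 and 3 were at -2.77 and -2.83, just below knockouts 1 and 2 at -2.56 and -2.52 (exact permutation p = 0.2).

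The sequence before the start of each gene is shown for the 4 hydroxylase genes, because 2 of them moved together and 2 did not. The letters searched were ACGTG and GCGTG, the core of the HIF response element, on both strands in the 250 bases before each RefSeq start (GRCm38.p6). ACGTG is also part of the E-box CACGTG, and GCGTG of the core that the aryl hydrocarbon receptor binds. Of 32851 such windows of the genome, 16.6% held ACGTG, 28.2% GCGTG and 38.6% either. A window was examined for 7 of the 9 genes, and none was examined for Eloc and Cul2. The lines below run 5′ to 3′ along the gene, end where the first annotated exon of RefSeq or GENCODE begins, and have the matches in capitals.
Egln1, chr8:124949325-124949504, minus strand: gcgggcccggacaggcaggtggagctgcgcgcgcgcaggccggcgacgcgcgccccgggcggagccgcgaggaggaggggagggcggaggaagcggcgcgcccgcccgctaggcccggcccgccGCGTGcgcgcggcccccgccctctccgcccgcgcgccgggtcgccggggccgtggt
Egln3, chr12:54203875-54204124, minus strand: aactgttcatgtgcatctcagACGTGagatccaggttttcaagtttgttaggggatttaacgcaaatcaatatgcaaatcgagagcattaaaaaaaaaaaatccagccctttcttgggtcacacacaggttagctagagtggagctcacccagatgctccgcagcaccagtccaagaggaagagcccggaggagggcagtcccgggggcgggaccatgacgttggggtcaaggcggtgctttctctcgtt
Egln2, chr7:27166803-27167052, minus strand: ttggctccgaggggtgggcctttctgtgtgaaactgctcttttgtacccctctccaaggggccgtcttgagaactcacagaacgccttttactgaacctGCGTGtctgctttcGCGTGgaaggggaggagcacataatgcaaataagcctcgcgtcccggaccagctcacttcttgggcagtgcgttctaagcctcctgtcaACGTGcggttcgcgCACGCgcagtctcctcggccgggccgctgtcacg
Hif1an, chr19:44562604-44562849, plus strand: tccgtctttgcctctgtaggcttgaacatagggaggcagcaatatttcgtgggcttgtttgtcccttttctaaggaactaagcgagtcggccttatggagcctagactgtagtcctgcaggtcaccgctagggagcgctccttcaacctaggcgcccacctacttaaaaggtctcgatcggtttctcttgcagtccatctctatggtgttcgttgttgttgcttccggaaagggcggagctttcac
Egln1 held GCGTG 126 bases before its RefSeq start, in a window with 86% G and C. It also held ACGTG 68 bases before that start, inside the first exon that GENCODE gives, shown here with 10 bases on each side.
Egln1 site, chr8:124949308-124949332, minus strand: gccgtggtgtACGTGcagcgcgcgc
Egln3 held 1 ACGTG, 229 bases before its start, and no GCGTG. Egln2, which was not called, held 1 ACGTG and 3 GCGTG, and Hif1an held neither. In the ligase genes Elob and Rbx1 held 2 GCGTG each, and Vhl neither. A further annotated start of Egln2 had 1 GCGTG before it. A match is a description of letters and not a binding site.

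Levels of different genes were compared per kb of annotated exon. In the controls the order of normalized values per kb was Elob (64.3 ± 0.81, SD, n = 3), Egln1 (30.4 ± 0.49), Eloc (23.2 ± 1.18), Hif1an (19.7 ± 1.08), Rbx1 (19.2 ± 0.19), Cul2 (19.04 ± 0.71), Egln2 (14.98 ± 0.34), Vhl (12.1 ± 0.81) and Egln3 (4.62 ± 1.74). The neighbours Hif1an, Rbx1 and Cul2 did not differ beyond their spread. In knockouts 1 and 2, Egln1 averaged 85.8 per kb and stood above Elob at 67.6. Egln3, the lowest of the 9 genes in the controls, averaged 19.6 per kb there, close to Rbx1 at 19.8 and Hif1an at 19.5. Vhl was the lowest gene in knockouts 1 and 2, at 3.56 per kb. In knockout 3 the values per kb were 31.1 for Egln1, 4.27 for Egln3 and 11.5 for Vhl.

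The order depends on the length taken, since the combined exons of every member but Egln1 and Egln3 are longer than its longest transcript. With the longest annotated transcript in place of all exons, Elob stood at 162.6 per kb in knockouts 1 and 2 and at 154.8 ± 1.94 in the controls, above Egln1 in both. Eloc and Rbx1 then stood at 34.9 ± 1.78 and 32.7 ± 0.32 in the controls, above Egln1. Egln3, at 19.6 per kb in knockouts 1 and 2, was then below Rbx1 (33.7), Hif1an (20.8), Cul2 (19.96) and Egln2 (19.9) there, and above Vhl alone. Under both lengths Vhl was the lowest of the 5 ligase genes in knockouts 1 and 2 and in the controls.

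The hydroxylase mRNA pool was larger in knockouts 1 and 2 and held larger shares of Egln1 and Egln3. Summed over the 4 genes, the level per kb was 134.3 and 145.4 in knockouts 1 and 2, 69.4 in knockout 3, and 67.3, 70.6 and 71.4 in the controls. Within the 3 prolyl hydroxylase genes, Egln1 made up 71.5% and 71.1% in knockouts 1 and 2, 62.9% in knockout 3, and 60.9% ± 1.45 in the controls (SD, n = 3). Egln3 made up 16.1% and 16.4% in knockouts 1 and 2, 8.62% in knockout 3, and 5.48%, 11.2% and 10.8% in the controls. The share of Egln2 averaged 12.4% in knockouts 1 and 2, against 28.4% in knockout 3 and 29.98% ± 1.74 in the controls, while its own level had the interval around 0 given above. Hif1an made up 13.95% and 13.94% of the 4 genes in knockouts 1 and 2, 28.7% in knockout 3 and 28.3% ± 1.37 in the controls. These shares use all annotated exons as length, are of mRNA only, and follow from the levels given above.

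**Figure D3:**
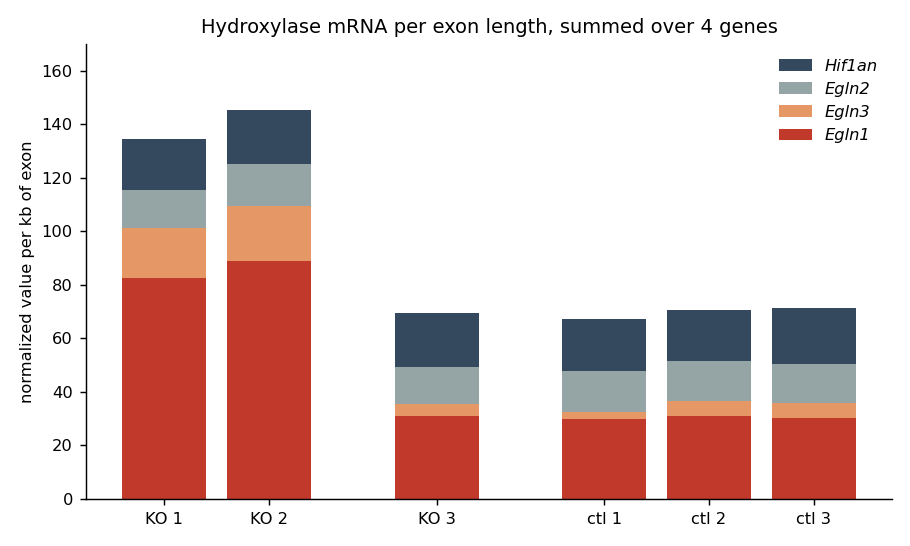
Normalized value per kb of exon, stacked over Egln1, Egln3, Egln2 and Hif1an, in each library (KO 1 and KO 2, then KO 3 apart, then the controls, ctl). The stacks of knockouts 1 and 2 reach 134.3 and 145.4 and those of the controls 67.3 to 71.4, and the bands of Egln1 and Egln3 are the ones that differ.

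Around the hydroxylases and the ligase, 7 lists of 74 genes were examined, of which 73 were in the table. In knockouts 1 and 2, 2 of the 73 were higher, 1 was lower and 70 did not pass, against 3.01% higher and 1.24% lower over all genes. The median log2 fold change of the 73 was -0.03, beside -0.01 over all genes.

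Among the 5 HIF subunit genes, 1 fell and 0 rose. That gene was Hif1a, the HIF-1 alpha subunit, with normalized values of 185 and 163 in knockouts 1 and 2, 473 in knockout 3, and 457, 405 and 447 in the controls. Both knockouts were below every control, by a log2 fold change of -1.32 ± 0.09 (limma adjusted p = 0.00025). Hif3a, which encodes a further alpha subunit, had normalized values of 139 in both knockouts 1 and 2, 165 in knockout 3, and 149.9, 148 and 148 in the controls (adjusted p = 0.50, limma). Arnt, the shared beta subunit, had a log2 fold change of -0.06 with a 95% interval of -0.22 to 0.11.

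Of 10 other 2-oxoglutarate hydroxylases in the table, 1 was higher and 0 lower. Jmjd6, a hydroxylase of lysines in splicing factors, had normalized values of 121 and 119 in knockouts 1 and 2, 60.3 in knockout 3, and 55.1, 58.99 and 54.3 in the controls. Both knockouts were about the same and far above every control, by a log2 fold change of 1.08 ± 0.07 (limma adjusted p = 0.00026). Asph, the aspartyl/asparaginyl hydroxylase of epidermal growth factor domains, had 304 and 248 in knockouts 1 and 2, 224 in knockout 3, and 229.99, 206 and 209 in the controls. It did not pass (limma adjusted p = 0.11), but did with litter as a block (0.029) and with DESeq2 (0.025). It also did not pass with edgeR (adjusted p = 0.11), or without control 3 and with no block (limma adjusted p = 0.23). Ogfod1, which hydroxylates a ribosomal protein, did not pass, at a log2 fold change of 0.20 ± 0.09.

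Of the 8 other cullins and RING partners, 1 was higher and 0 lower. Rnf7, also called RBX2, is the RING partner of CUL5 and a relative of Rbx1. It had normalized values of 160.3 and 144 in knockouts 1 and 2, 112 in knockout 3, and 113, 109 and 123 in the controls. Both knockouts exceeded the controls (log2 0.40 ± 0.08, limma adjusted p = 0.043), close to the threshold. The call was lost with edgeR (adjusted p = 0.051) and without any 1 control (limma adjusted p from 0.056 to 0.16). It was kept with litter as a block (limma adjusted p = 0.0056) and with DESeq2 (0.0029). The call was also lost without knockout 1 and without knockout 2, where only 1 knockout was left. The log2 fold change was then 0.32 and 0.48. Cul5 itself had a log2 fold change of -0.14 ± 0.08 and Cul3 one of -0.12 ± 0.07, and neither passed.

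In the list of 14 regulators of the hydroxylases and of VHL, 0 passed and the median log2 fold change was 0.07. Siah2, a ubiquitin ligase that targets PHD1 and PHD3 for degradation, had normalized values of 20.1 and 17.3 in knockouts 1 and 2, 10.7 in knockout 3, and 13.9, 11.4 and 13.1 in the controls. Both knockouts were above the controls, with a log2 fold change of 0.51 ± 0.14 (limma adjusted p = 0.091). For Siah2 the limma adjusted p was 0.039 with litter as a block, and 0.17 without control 3 and with no block. Wsb1, a ligase subunit known to target VHL in human cancer cells, had a log2 fold change of 0.28 ± 0.09, and Rack1, which promotes degradation of HIF-1 alpha independently of oxygen, one of 0.17 ± 0.08. Neither passed (limma adjusted p = 0.17 and 0.33).

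Of 10 other substrate receptors that use elongin B and C with CUL2, 0 passed, and their log2 fold changes ran from -0.20 (Klhdc10) to 0.11, with -0.14 for Fem1a and -0.10 for Klhdc2. Of 22 genes of neddylation, which activates cullins, and of the COP9 signalosome, which removes NEDD8 from them, 0 passed. The lowest of these was Cand2, a muscle form of the cullin exchange factor, with 129.6 and 139 in knockouts 1 and 2, 167 in knockout 3, and 184, 171 and 160.2 in the controls. Both knockouts were below the controls (log2 -0.35 ± 0.08, limma adjusted p = 0.058). It passed with litter as a block (0.013), with DESeq2 (0.0089) and after scaling to total reads (limma adjusted p = 0.0499). It did not pass with edgeR (adjusted p = 0.073) or after scaling by DESeq2 size factors (limma adjusted p = 0.061). Nor did it pass without any 1 control and with no block (limma adjusted p from 0.069, without control 3, to 0.18). Nedd8 and Uba3, a subunit of its activating enzyme, had log2 fold changes of 0.13 and -0.11.

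Of the 4 coactivator genes whose binding to HIF alpha the asparaginyl hydroxylase controls, or that compete for it, 0 passed. Cited2, a HIF-induced protein that competes with HIF alpha for p300 and CBP, had normalized values of 43.1 and 51.5 in knockouts 1 and 2. Its values were 36.8 in knockout 3, and 30.7, 37.8 and 36.4 in the controls (log2 0.43 ± 0.12, limma adjusted p = 0.11). The limma adjusted p was 0.016 with litter as a block, and 0.17 without control 3 and with no block. Ep300 and Crebbp, which encode p300 and CBP, had log2 fold changes of -0.19 ± 0.10 and -0.12 ± 0.12.

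**Figure D4:**
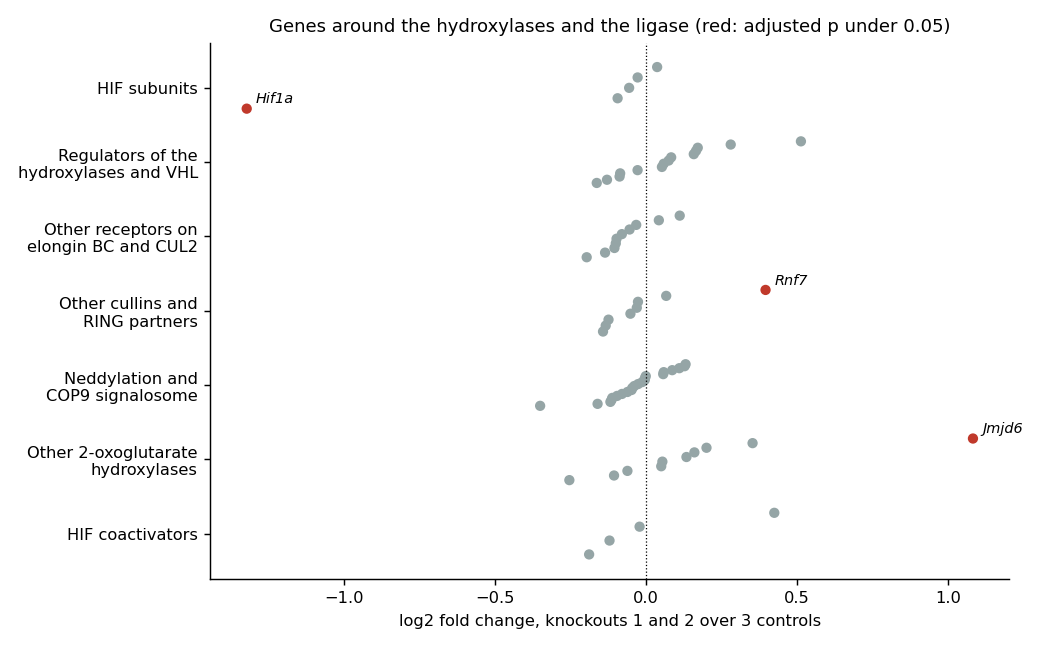
Log2 fold change, knockouts 1 and 2 over the 3 controls, of each of the 73 measured genes of the 7 lists, 1 point per gene, spread vertically within its list by rank; red points with names have an adjusted p under 0.05 (limma, 5 libraries). Hif1a lies at -1.32, Rnf7 at 0.40 and Jmjd6 at 1.08, and the other 70 points lie between -0.35 and 0.51.

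The genes with the most similar pattern were found by the root mean square difference in log2(value + 1), relative to the control mean, over the 6 libraries among named genes with a mean above the median. This is a description with no test. For Vhl the nearest was Hif1a, at a distance of 0.23, followed by the folate enzyme gene Aldh1l2 (0.31) and the arrestin gene Arrdc4 (0.45). For Egln1 the nearest were Ak4, an adenylate kinase gene (0.05), the transcription factor gene Bhlhe40 (0.07) and Aplp1, of the amyloid precursor family (0.09). Ak4 had normalized values of 172 and 170.4 in knockouts 1 and 2, 64.4 in knockout 3, and 62.9, 62.1 and 63.4 in the controls. For Egln3 they were Sparcl1, which encodes a matrix glycoprotein (0.25), the mitophagy receptor gene Bnip3 (0.26) and the collagen prolyl hydroxylase gene P4ha2 (0.35). Sparcl1 had 82.5 and 93.9 in knockouts 1 and 2, 25.5 in knockout 3, and 19.7, 30.96 and 25.3 in the controls, so that control 1 was the lowest library, as it was for Egln3.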

How the data were processed

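The authors deposited 1 table of normalized signal per gene for 6 libraries, made from single reads of 75 bp and 500 ng of total RNA, per the labels' protocols. Per the submitters' processing notes, CASAVA 1.8.2, cutadapt 1.3 and RSEM 1.2.3 were used with GRCm38, while annotation release, gene filter and scaling are not given in the sources used here. Dividing each column by its smallest step left 100% of values whole to within 0.01 reads. The deposited signal is therefore whole counts divided by 1 factor per library. These counts were recovered from it and are called reads here, though RSEM assigned them and shares reads between copies. The factors match edgeR's effective library sizes (TMM) computed from those reads. GENCODE M21 gave symbols for 13675 of 13843 identifiers. Each gene reached a value of 1 in 3 or more libraries, and the TruSeq kit named in the labels does not mark strand.

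All genes were tested on log2(value + 1) by limma 3.58.1 (trended variance, R 4.3.3), 2 knockouts against 3 controls, no covariate, Benjamini-Hochberg adjusted p under 0.05. Fold changes on that scale understate the change of low genes. Each library is 1 embryo. Alternatives used edgeR 4.0.16 and DESeq2 1.42.0 on recovered reads. The fit was also run on simulated counts with the same dispersion for every gene and no litter effect. That run does not show how the fit does on these libraries. Litter pairs the libraries per the labels. Across genes, deviations from the group mean, with knockout 3 in the knockout mean, had a correlation of 0.20 in litter 1 and 0.28 in litter 2. Pairs from unlike litters were at -0.12 (knockout 1 with control 2), -0.33 (knockout 2 with control 1) and 0.01 (knockout 3 with control 3). Control 3 has no litter mate in the comparison, so fold changes with the block equal those without control 3. The block leaves 1 residual degree of freedom. Members, lists and tests were chosen with earlier results of these data known. The genes named from each list are those past the threshold or, failing 3, the smallest p up to 3. Beside each of Vhl, Egln1 and Egln3 the 3 genes nearest in pattern are named, and any gene that overlaps or copies a member.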

Additional observations from a re-analysis of the deposited data

How the results depend on the processing

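Egln1 and Egln3 were called with either other pseudocount, a mean value of at least 5, both other scalings, edgeR, DESeq2 and litter as a block. With all 6 libraries, limma called 0 genes, thus 0 hydroxylase, 0 ligase and 0 list genes, with 859 genes at an unadjusted p under 0.05. The log2 fold changes there were 1.00 for Egln1, 1.37 for Egln3 and -1.14 for Vhl. Over all genes, the replicate block of litter gave 1122 calls in place of 588, and leaving out 1 of the 5 libraries gave 190 (without knockout 1) to 387 (without control 1), with 291 without knockout 2, 279 without control 2 and 342 without control 3. The hydroxylase calls numbered 1 to 2 when 1 library was left out. Calls in the 7 lists numbered 3, against 7 with the replicate block, 5 with DESeq2 and 2 without any 1 library. Among the 9 genes and the genes named from the lists, the block changed no other call than those of Siah2, Cand2, Asph and Cited2. None of them passed without control 3 and with no block. Differences close to 0 changed sign. Egln2 was at -0.00073 as reported, at 0.00015 with DESeq2 size factors, 0.00012 with edgeR and 0.0012 with DESeq2, and from -0.063 to 0.062 when 1 library was left out. Hif1an was at 0.027 with the replicate block and from -0.073 to 0.040 when 1 library was left out, Eloc from -0.11 to 0.013 and Crebbp from -0.24 to 0.0015. The cause was not tested. With the longest transcript as length, Egln1 made up 68.5% of the prolyl hydroxylase mRNA in knockouts 1 and 2, against 71.3% with all exons. The 3 genes nearest to each of Vhl, Egln1 and Egln3 were kept without knockout 3. Of the 9 genes Egln3 had the fewest reads, 63 in control 1.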
